A study of Mus musculus with 4 samples.

Results

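Type I interferon-stimulated genes were examined in quiescent follicular B cells of WT and Ets1-/- mice. The set was a fixed list of 41 gene symbols whose transcription is known to rise after type I interferon, and all 41 were found among the 23305 genes of the RNA-seq tables. The study sequenced RNA from splenic B cells of female mice, sorted as B220+ CD23-high CD21-low cells negative for CD80 and for surface IgA, IgE and the IgG isotypes, with 2 libraries per genotype. The WT mice were C57BL/6. The Ets1-/- mice lacked Ets1 from the germline on, so in every cell and not in B cells alone, and were C57BL/6 x 129Sv, so genotype and strain cannot be told apart in these libraries. The age of the sequenced mice and whether cells of several animals were pooled are not given in the sources used here. Expression is given as FPKM, which scales sequenced fragments by transcript length and by library size, with 1 value per gene and library.

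Type I interferons bind a receptor of the Ifnar1 and Ifnar2 chains on nearly all cells. The receptor-bound kinases Jak1 and Tyk2 phosphorylate STAT proteins, among them Stat2, which acts with Irf9 in the nucleus. The resulting complex binds the interferon-stimulated response element (ISRE) in the promoters of antiviral genes. These genes include sensors of viral RNA, enzymes that degrade RNA or block its translation, and membrane proteins that hinder viral entry or release. Resting cells keep a low tonic level of many of them. A raised level of this set is a well-known feature of blood cells in systemic lupus, and Ets1-/- mice develop autoantibodies, which gives the comparison its interest.

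The response element named after such genes can be read directly in part of the promoters of the set. The core, taken as GAAA, 2 bases of any kind and GAAA again, was searched on both strands of the RefSeq promoter table (build GRCm38.p6, from 250 bases before to 50 bases after each start), which held 28 of the 41 genes. A match was found in 11 of the 28 genes, or 39.3%, against 1079 of all 27025 genes in the table, or 3.99%. The windows of 30 bases are shown for the 11 genes with a match, and the level of each gene in the B cells is given further on. They are written 5′ to 3′ in the direction of transcription, with each match to the core or its reverse complement in capitals.
Isg15 (chr4:156200871-156200900, minus strand): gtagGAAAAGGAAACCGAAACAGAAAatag
Oas1a (chr5:120907523-120907552, minus strand): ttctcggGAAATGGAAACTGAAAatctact
Oas3 (chr5:120777715-120777744, minus strand): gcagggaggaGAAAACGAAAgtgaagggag
Ifit1 (chr19:34640784-34640813, plus strand): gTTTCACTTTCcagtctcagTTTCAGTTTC
Ifit3 (chr19:34583363-34583392, plus strand): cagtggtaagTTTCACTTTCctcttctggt
Rsad2 (chr12:26456553-26456582, minus strand): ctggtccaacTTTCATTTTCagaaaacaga
Bst2 (chr8:71537580-71537609, minus strand): attccagGAAAATGAAACTGAAAggctgca
Eif2ak2 (chr17:78882535-78882564, minus strand): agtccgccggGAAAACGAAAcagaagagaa
Ifih1 (chr2:62646206-62646235, minus strand): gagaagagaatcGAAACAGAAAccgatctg
Ddx58 (chr4:40239804-40239833, minus strand): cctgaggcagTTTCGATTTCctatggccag
Ifitm3 (chr7:141010715-141010744, minus strand): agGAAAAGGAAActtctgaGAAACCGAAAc

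Overlapping matches stood in tandem in Isg15, where they began 78, 72 and 66 bases before the start, and in Oas1a and Bst2. In Ifit1 the pair began 104 and 85 bases before the start, and Ifit3 held another match outside the window shown. The matches of Eif2ak2, Ifih1, Ddx58 and Ifitm3 lay just after the start. Ets factors bind a GGAA core. The composite site bound jointly by Ets factors and interferon regulatory factors, taken as GGAA, 2 bases of any kind and GAAA, differs from the ISRE core in 1 letter and was matched in Adar, Dtx3l, Ifi44 and Sp100, or 14.3% of the 28 genes against 3.16% of all genes in the table. The longer Ets site CCGGAAGT was matched in Ifih1 and Ifit2, or 7.14% against 4.31%. A match is a description of the letters, and binding at these positions was not analysed here.

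The libraries were compared for depth and cell content before the members were read. The read number behind a value was not used here, but the steps between low FPKM values gave approximate depths relative to WT replicate 1, namely 1.71 in the other WT library and, in the Ets1-/- libraries, 1.62 in replicate 1 and 0.847 in replicate 2. Ets1 itself had an FPKM of 231 and 275 in WT and 229 and 229.8 in Ets1-/- B cells, so this gene-level value is no check of the genotype labels. The paper describes unreduced Ets1 transcription as a whole in its knockout cells, with reduced or absent signal at the targeted exons. Values of single exons were not used here. The summed FPKM of 6 follicular B cell markers (Cd79a, Cd79b, Ms4a1, Fcer2a, Cd22, Cd74) lay between 17020 and 20149 in the 4 libraries. Cd74 made up most of each sum and was higher in both Ets1-/- libraries. Cd79a was lower in both, with 1923 and 2051 FPKM in WT and 1407 and 1639 in Ets1-/- B cells. Cd79b, Ms4a1, Fcer2a and Cd22 overlapped between the genotypes, and none of the 6 was called. Of 8 neutrophil markers, 3 were called higher in Ets1-/- B cells, and the summed FPKM of the 8 was 111 and 92.3 in WT and 2555 and 699 in Ets1-/- replicates 1 and 2. Of 8 monocyte and macrophage markers, 1 (Emr1) was called higher, and their sum was 59.2 and 26.6 in WT and 144 and 91.7 in Ets1-/- libraries. Lyz2 and Emr1 were higher in both Ets1-/- libraries. Csf1r, C1qa, C1qb and C1qc overlapped between the genotypes, and Cd14 and Fcgr1 stayed under 1 FPKM in every library. The sum of 4 markers of plasmacytoid dendritic cells, a main source of type I interferon, was between 1.65 and 4.44 in every library. The sums of 5 T cell markers lay between 46.6 and 70.0 and those of 4 plasma cell markers between 59.3 and 91.8. Most of the plasma cell sum was Igj, which overlapped between the genotypes. Sdc1 had 7.11 and 5.13 FPKM in WT and 9.72 and 19.8 in Ets1-/- B cells. Prdm1 had 0.580 and 0.672 FPKM in WT and 1.68 and 1.48 in Ets1-/- B cells. Sdc1 and Prdm1 were thus higher in both Ets1-/- libraries, and neither was called. Tnfrsf17 stayed under 1 FPKM in every library. None of the 35 markers was at 0 in all libraries.

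The interferon-stimulated genes were expressed in resting follicular B cells over a wide range. The mean FPKM of a genotype reached 1 in WT or in Ets1-/- B cells for 39 of the 41 genes. The mean over the 4 libraries was at least 10 for 19 genes and at least 100 for 4. Ly6e, a surface protein that limits the fusion of enveloped viruses, was the highest, with 1171 and 1154 FPKM in WT and 914 and 1125 in Ets1-/- B cells. Its mean exceeded that of 98.8% of the genes tested. Ifi27l2a, a small membrane protein, followed with 352 and 359 FPKM in WT and 326 and 413 in Ets1-/- B cells. Sp100, a scaffold of nuclear bodies that silence viral DNA, had 187 and 182 FPKM in WT and 161 and 144 in Ets1-/- B cells. Samd9l, which restricts poxviruses and proliferation, had 97.5 and 103 FPKM in WT and 127 and 88.6 in Ets1-/- B cells. Ifi35, a leucine zipper protein that binds Nmi, was the fifth with 53.2 and 53.1 FPKM in WT and 56.1 and 72.7 in Ets1-/- B cells. Ly6e and Sp100 were lower in both Ets1-/- libraries than in both WT libraries, Ifi35 was higher in both, and none of these 3 was called. At the other end, Ifi44 had between 0.0793 and 0.229 FPKM in the 4 libraries and Ifih1 between 0.766 and 1.10. These 2 genes stayed under the minimum for testing.

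**Figure D1:**
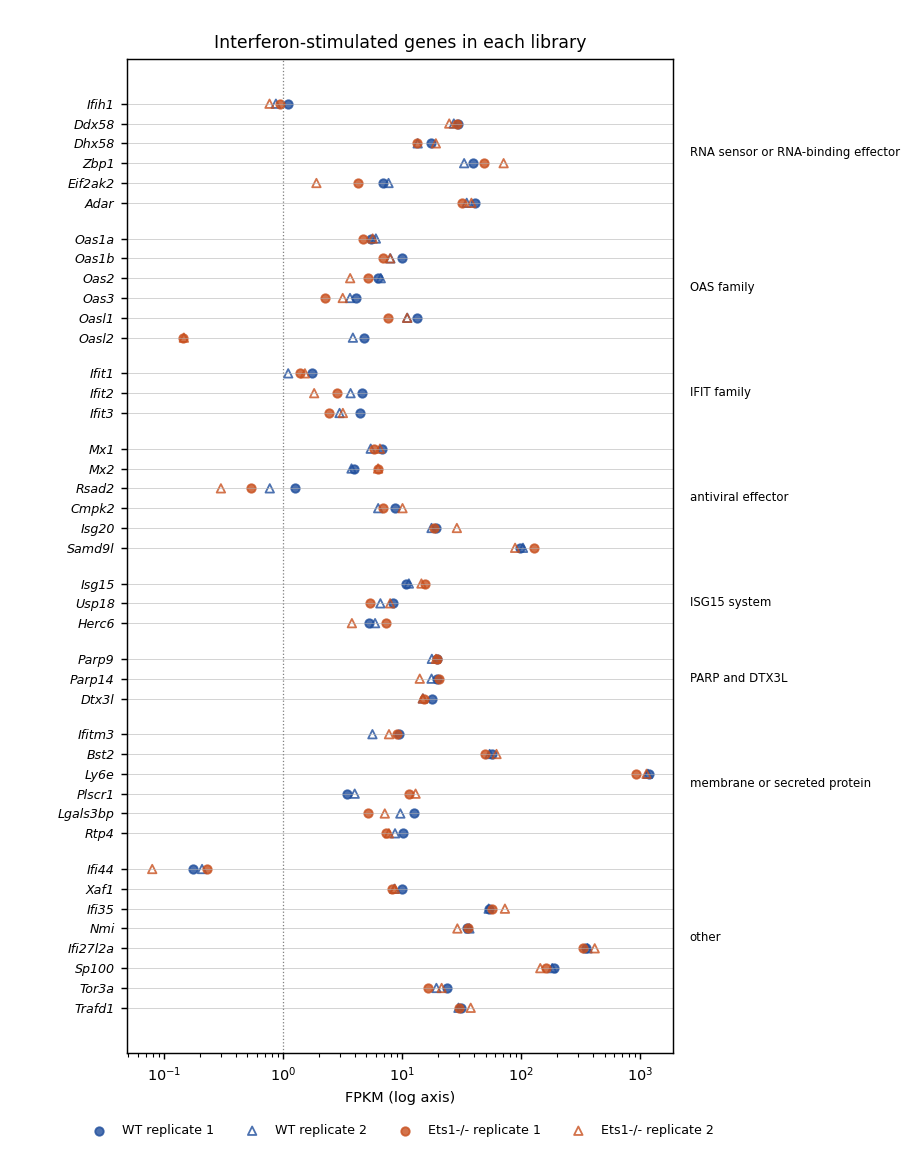
FPKM of the 41 interferon-stimulated genes in each library on a log axis, grouped by role, with WT in blue, Ets1-/- in orange, circles for replicate 1 and triangles for replicate 2. Points of both genotypes lie near each other for most genes, from Ifi44 at the left to Ly6e at the right. The genotypes did not overlap for 17 of the 39 genes tested, or 43.6%, against 41.6% of all genes tested. The widest gaps were those of Oasl2 and Plscr1.

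Few members passed the test between the genotypes, in opposite directions. Genotypes were compared with limma on log2(FPKM + 1) over the 10949 genes whose mean FPKM reached 1 in WT or Ets1-/- B cells, with Benjamini-Hochberg adjustment over all of them. A gene was called where the change was 2-fold or more on this scale (log2 change, Ets1-/- minus WT) and the adjusted p did not exceed 0.05. Of the 39 genes tested 1 rose (Plscr1, against 0.877% of all genes tested) and 1 fell (Oasl2, against 0.822%). The median log2 change was -0.11 over the 39 genes and -0.02 over all genes tested, and without regard to sign these medians were 0.18 and 0.16. Without WT replicate 1 the median of the members was -0.0095, beside -0.03 over all genes tested in that fit. By their means 15 genes were higher and 24 lower in Ets1-/- B cells, beside 5140 and 5809 of all genes tested. Oasl2 and Rsad2 passed the minimum only through WT, so these counts describe the genes tested and not the whole list.

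For most members the data bound the change. The 95% interval of the log2 change from limma, which is for single genes and not adjusted for their number, lay within a 2-fold change in either direction for 32 of the 39 genes, against 83.5% of all genes tested. The interval reached or passed 2-fold for Oasl2, Plscr1, Eif2ak2, Lgals3bp, Zbp1, Ifit2 and Rsad2. An unadjusted p of 0.05 or less was found for 9 genes, or 23.1%, against 13.3% of all genes tested. Of the 9, 4 were higher (6.39% of all genes tested) and 5 lower (6.95%), and 7 were not called. The libraries of the genotypes did not overlap for 17 of the 39 genes, or 43.6%, against 41.6% of all genes tested, 12 of them lower in Ets1-/- B cells (30.8%, against 22.2% of all genes tested) and 5 higher (12.8%, against 19.4%). The log2(FPKM + 1) scale draws the changes of genes with low FPKM towards 0.

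**Figure D2:**
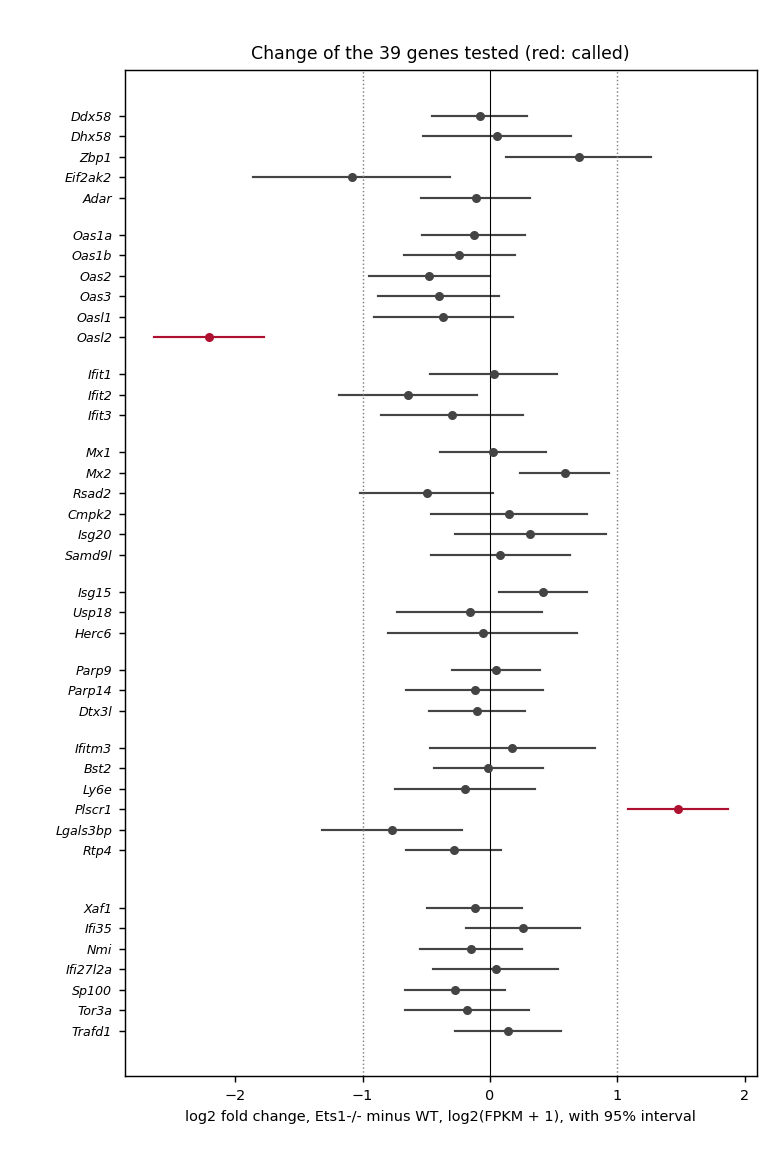
Log2 fold change (Ets1-/- minus WT, on the log2(FPKM + 1) scale) of the 39 genes tested, as points with 95% intervals from limma, grouped by role in the order of the plot of levels, with dotted lines at a 2-fold change. Oasl2 at -2.21 and Plscr1 at 1.48, in red, were called, and 32 intervals lie between the dotted lines.

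**Figure D3:**
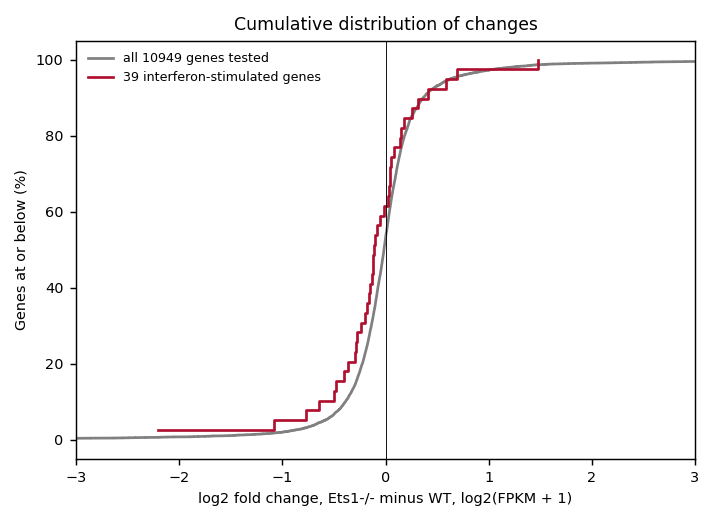
Cumulative share of genes (%) against the log2 change (Ets1-/- minus WT) for the 39 interferon-stimulated genes in red and all 10949 genes tested in grey. The red line crosses the midpoint at -0.11 and the grey line at -0.02, and the axis is limited to changes between -3 and 3.

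Oasl2 was the member with the largest change. The gene encodes an oligoadenylate synthetase-like protein that, unlike that of its neighbour Oasl1, retains synthetase activity and also carries ubiquitin-like domains. In mm9 it spans chr5:115346943-115362243, plus strand. Its FPKM was 4.77 and 3.84 in WT and 0.144 and 0.146 in Ets1-/- B cells. Both Ets1-/- libraries were thus far below both WT libraries. Oasl2 fell by 2.21 on the log2(FPKM + 1) scale (SE 0.17, limma adjusted p 0.00969, range over the alternatives 2.51e-05 to 0.0566), and the WT mean was 29.7 times the Ets1-/- mean. In such bulk RNA fewer cells that express a gene and less RNA per cell cannot be told apart. Without Ets1-/- replicate 1 or replicate 2 the adjusted p of Oasl2 was 0.0509 and 0.0566, with log2 changes of -2.21 in both fits.

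None of the genes tested around Oasl2 was called. Oasl1, a translational inhibitor of Irf7 that has no synthetase activity, spans chr5:115373249-115387924 of mm9 on the same strand. Oasl1 had 13.2 and 11.0 FPKM in WT and 7.59 and 10.97 in Ets1-/- B cells, a log2 change of -0.36 (95% interval from -0.91 to 0.18). Both Ets1-/- libraries were lower, replicate 2 by a small margin. Of the 7 other genes tested within 150 kb of Oasl2, Oasl1 included, 0 were called by limma, and their log2 changes lay between -0.54 and 0.16. Of all genes tested 1.7% were called in either direction, so 0 of 7 calls says little about the region. The 250 bases before the RefSeq starts of Oasl2 and Oasl1 are shown for comparison, with each GAAA or TTTC in capitals. Each held 3 of these tetramers and neither held the ISRE core, which says only that these letters are not in the window.
Oasl2 (GRCm38.p6, chr5:114896684-114896933, plus strand): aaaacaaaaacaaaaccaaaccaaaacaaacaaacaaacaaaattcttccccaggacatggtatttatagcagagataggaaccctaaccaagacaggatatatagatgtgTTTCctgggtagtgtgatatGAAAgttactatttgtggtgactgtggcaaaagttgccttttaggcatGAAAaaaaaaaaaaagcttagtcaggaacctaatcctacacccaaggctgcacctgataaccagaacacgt
Oasl1 (GRCm38.p6, chr5:114922990-114923239, plus strand): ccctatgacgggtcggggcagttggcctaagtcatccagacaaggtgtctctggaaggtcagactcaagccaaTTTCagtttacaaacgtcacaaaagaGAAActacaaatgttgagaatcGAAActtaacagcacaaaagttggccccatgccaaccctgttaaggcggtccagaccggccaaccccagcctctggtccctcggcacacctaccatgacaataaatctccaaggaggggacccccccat

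Plscr1 was the member that rose. It encodes a phospholipid scramblase, a membrane protein that interferon induces and that hinders the entry of several viruses. Its FPKM was 3.44 and 3.98 in WT and 11.3 and 12.9 in Ets1-/- B cells, so the genotypes did not overlap. The log2 change was 1.48 (SE 0.15, limma adjusted p 0.0212) and the ratio of means was 3.27. The log2 change stayed between 1.39 and 1.57 with each library left out in turn, while the adjusted p was then between 0.0541 and 0.121. The marker sums of neutrophils and of monocytes or macrophages were higher in the same libraries. Among the latter markers, Lyz2 and Emr1 were higher in both, while Csf1r, C1qa, C1qb and C1qc overlapped between the genotypes. The ratio of Ets1-/- replicate 1 to replicate 2 was 0.877 for Plscr1, 3.65 for the neutrophil sum, 1.57 for the monocyte and macrophage sum and 0.630 for Emr1, and the part of these cells in the value of Plscr1 was not tested. In mm9 Plscr1 spans chr9:92144895-92166813, plus strand. It was the 1 member on the chromosome of Ets1, with 59.6 Mb between the genes. Of its paralogs, Plscr3 had 3.30 and 2.82 FPKM in WT and 2.34 and 3.41 in Ets1-/- B cells, and Plscr2, the next gene on the chromosome, had at most 0.0166 FPKM. The 250 bases before its RefSeq start held 7 GAAA or TTTC tetramers, in capitals, and not the ISRE core.
Plscr1 (GRCm38.p6, chr9:92249944-92250193, plus strand): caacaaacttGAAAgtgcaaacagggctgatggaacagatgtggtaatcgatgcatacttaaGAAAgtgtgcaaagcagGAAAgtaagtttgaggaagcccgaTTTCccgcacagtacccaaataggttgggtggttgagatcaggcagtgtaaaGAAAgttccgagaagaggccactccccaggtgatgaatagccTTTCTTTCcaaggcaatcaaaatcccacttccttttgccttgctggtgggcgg

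Among the RNA sensors and RNA-binding effectors, no gene was called, and Eif2ak2 and Zbp1 had the largest differences. Ddx58 encodes RIG-I, the sensor of uncapped viral RNA. Its FPKM was 29.3 and 27.1 in WT and 28.6 and 24.8 in Ets1-/- B cells, with a log2 change of -0.08 (95% interval from -0.45 to 0.29). Dhx58, which encodes the regulatory helicase LGP2, had 17.5 and 13.5 FPKM in WT and 13.4 and 19.1 in Ets1-/- B cells. Adar, the editor that marks cellular double-stranded RNA as self, had 40.99 and 34.7 FPKM in WT and 31.9 and 38.0 in Ets1-/- B cells. For these 3 genes the libraries of the genotypes overlapped. Ifih1, which encodes the sensor of long double-stranded RNA MDA5, was near 1 FPKM, with 1.10 and 0.867 in WT and 0.937 and 0.766 in Ets1-/- B cells.

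Eif2ak2 encodes PKR, the kinase that stops translation when it binds double-stranded RNA. Its FPKM was 6.88 and 7.66 in WT and 4.23 and 1.90 in Ets1-/- B cells. Both Ets1-/- libraries were lower, and they differed from each other by more than the WT libraries did. The log2 change of Eif2ak2 was -1.08 (SE 0.30, limma adjusted p 0.199). Zbp1, the sensor of Z-form nucleic acids that triggers necroptosis, had 39.2 and 33.0 FPKM in WT and 49.0 and 70.9 in Ets1-/- B cells. Its log2 change was 0.70 (SE 0.22, limma adjusted p 0.254), with both Ets1-/- libraries above both WT libraries.

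All 6 listed genes of the oligoadenylate synthetase family had a lower mean in Ets1-/- B cells, as did 5809 of the 10949 genes tested. Of the 6, Oasl2 alone was called. The active enzymes of the family make the second messenger that activates RNase L. Oas2 had 6.23 and 6.59 FPKM in WT and 5.11 and 3.65 in Ets1-/- B cells, a log2 change of -0.48 (SE 0.19, limma adjusted p 0.371). Oas3 had 4.09 and 3.63 FPKM in WT and 2.24 and 3.16 in Ets1-/- B cells, a log2 change of -0.40 (SE 0.19, limma adjusted p 0.465). Both genes were lower in both Ets1-/- libraries, as were Oasl2, Oasl1 and Oas1b. These are 5 of the 6 genes, or 83.3%, against 22.2% of all genes tested. Oasl2 reached the minimum only through WT and the 6 genes are related, so this share describes these genes alone. For Oasl1 and Oas1b the nearest libraries of the genotypes lay close together. Oas1a had 5.44 and 5.99 FPKM in WT and 4.68 and 5.63 in Ets1-/- B cells, and its genotypes overlapped. Oas1b, the flavivirus resistance gene, had 9.96 and 7.93 FPKM in WT and 6.91 and 7.89 in Ets1-/- B cells. The Oas1 genes are close paralogs in 1 cluster on chromosome 5, so fragments may have been divided among them. Oas1c of the same cluster, which is not on the list, had 12.4 and 11.0 FPKM in WT and 10.5 and 11.5 in Ets1-/- B cells. The genotypes overlapped for Oas1c.

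The IFIT proteins, which bind viral RNA ends and block its translation, were expressed at low levels. Ifit2 had 4.59 and 3.67 FPKM in WT and 2.80 and 1.82 in Ets1-/- B cells, without overlap. Its log2 change was -0.64 (SE 0.21, limma adjusted p 0.271). Its neighbours on chromosome 19 overlapped between the genotypes. Ifit1 had 1.74 and 1.10 FPKM in WT and 1.38 and 1.52 in Ets1-/- B cells, and Ifit3 had 4.40 and 2.97 in WT and 2.40 and 3.17 in Ets1-/- B cells. The promoter windows of Ifit1 and Ifit3 shown above hold the element, while the RefSeq promoter of Ifit2 had no match to it.

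The 6 antiviral effectors gave no call. Mx2, a dynamin-like GTPase, had 3.92 and 3.74 FPKM in WT and 6.25 and 6.26 in Ets1-/- B cells, with little spread in either genotype. Its log2 change was 0.59 (SE 0.14, limma adjusted p 0.140). Mx1, beside it on chromosome 16, had 6.72 and 5.42 FPKM in WT and 5.84 and 6.48 in Ets1-/- B cells. Rsad2 encodes viperin, which makes a chain-terminating nucleotide. Its FPKM was 1.25 and 0.770 in WT and 0.534 and 0.299 in Ets1-/- B cells, and its log2 change of -0.50 (SE 0.21) had a limma adjusted p of 0.403. Cmpk2, the nucleotide kinase next to Rsad2 on chromosome 12, had 8.60 and 6.27 FPKM in WT and 6.83 and 10.03 in Ets1-/- B cells. Isg20, an exonuclease, had between 17.6 and 28.7 FPKM, and its genotypes overlapped as did those of Samd9l.

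The ISG15 system attaches the ubiquitin-like protein Isg15 to other proteins through the ligase Herc6 and removes it through Usp18, which also blocks the interferon receptor. Isg15 had 10.6 and 11.3 FPKM in WT and 15.6 and 14.5 in Ets1-/- B cells. Both Ets1-/- libraries were higher, with a log2 change of 0.42 (SE 0.14, limma adjusted p 0.261). Usp18 had 8.39 and 6.54 FPKM in WT and 5.39 and 7.90 in Ets1-/- B cells. Herc6 had 5.24 and 5.90 FPKM in WT and 7.34 and 3.77 in Ets1-/- B cells, so the Ets1-/- libraries lay on either side of the WT libraries. The genotypes overlapped for Usp18 and Herc6.

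**Figure D4:**
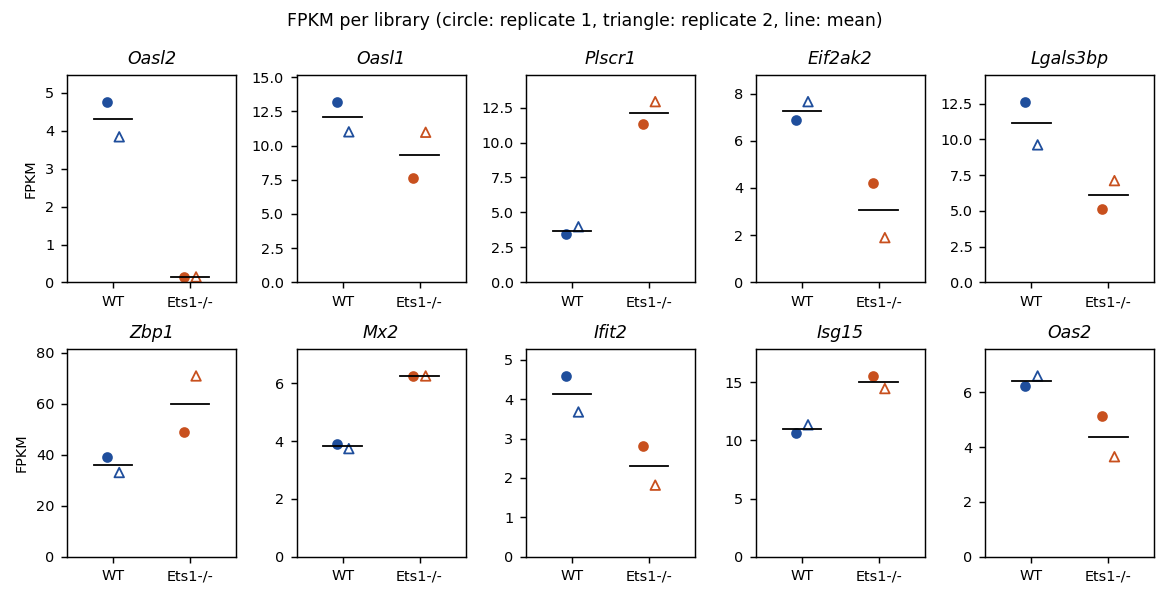
FPKM of 10 interferon-stimulated genes by genotype, each panel with its own linear axis from 0, circles for replicate 1, triangles for replicate 2 and lines for the mean of 2 libraries. Oasl2 sits near 0.15 in both Ets1-/- libraries and Plscr1 above 11. Oasl1 is shown beside them as the neighbour of Oasl2, lower in both Ets1-/- libraries and not called.

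Parp9, Parp14 and Dtx3l are neighbours on chromosome 16 and act together, Parp9 with the ubiquitin ligase Dtx3l as a dimer. Their libraries overlapped between the genotypes for each of the 3 genes, with FPKM between 14.01 and 20.5. Parp9 had the smallest difference of the 3, a log2 change of 0.05 (95% interval from -0.30 to 0.40).

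Among the membrane and secreted proteins, Plscr1 apart, Lgals3bp differed most. It encodes a secreted glycoprotein that binds galectins. Its FPKM was 12.6 and 9.62 in WT and 5.14 and 7.12 in Ets1-/- B cells, with no overlap. The log2 change of Lgals3bp was -0.77 (SE 0.21, limma adjusted p 0.199). Rtp4, a chaperone of receptors, had 10.1 and 8.68 FPKM in WT and 7.32 and 7.71 in Ets1-/- B cells, also without overlap, and a log2 change of -0.28 (95% interval from -0.66 to 0.09). Ifitm3, which blocks fusion of virions in endosomes, overlapped between the genotypes with values between 5.61 and 9.41 FPKM. Its relative Ifitm6, chosen here after its values were seen, had 2.51 and 1.35 FPKM in WT and 21.1 and 10.2 in Ets1-/- B cells, a log2 change of 2.45 (limma adjusted p 0.0568), which did not pass. Beside it, the neutrophil markers were also higher in Ets1-/- replicate 1 than in replicate 2, and their part in the value of Ifitm6 was not tested.

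The remaining members with a value above the minimum showed small differences. Nmi had 34.8 and 36.6 FPKM in WT and 35.4 and 29.0 in Ets1-/- B cells. Bst2, a membrane protein that tethers budding virions and also marks plasmacytoid dendritic cells, had 57.1 and 54.1 FPKM in WT and 49.0 and 61.8 in Ets1-/- B cells. Besides Bst2, Xaf1, Tor3a, Trafd1, Ifi27l2a, Sp100, Ifi35 and Nmi had log2 changes between -0.28 and 0.26, and for all 7 genes the 95% interval lay within a 2-fold change. Sp100 was lower in both Ets1-/- libraries and Ifi35 higher in both, and the other 5 overlapped.

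The pathway upstream of the set was expressed in both genotypes, and 0 of its 29 genes tested were called by limma (1.7% of all genes tested in either direction). An unadjusted limma p of 0.05 or less was found for 4 of the 29, 2 higher and 2 lower. This was 13.8%, near the 13.3% of all genes tested. The median log2 change of the 29 genes was 0.04. Of the ligand genes, Ifnb1, Ifna2 and Ifna5 were listed at 0 in every library, and Ifna1 and Ifna4 were above 0 in WT replicate 1 alone, at 0.128 and 0.107 FPKM. Ifng, the type II interferon, had 1.78 and 2.62 FPKM in WT and 4.71 and 2.72 in Ets1-/- B cells.

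The receptor chains for type I interferon had narrow intervals around 0. Ifnar1 had 24.99 and 24.3 FPKM in WT and 27.97 and 22.9 in Ets1-/- B cells, a log2 change of 0.04 (95% interval from -0.36 to 0.43). Ifnar2 had 28.8 and 30.1 FPKM in WT and 29.7 and 29.2 in Ets1-/- B cells, with an interval from -0.33 to 0.33. The chain Ifngr1 of the type II receptor differed from them, with 40.4 and 41.5 FPKM in WT and 26.3 and 24.8 in Ets1-/- B cells. Its log2 change of -0.66 (SE 0.13) had a limma adjusted p of 0.0969 and did not pass. Its partner Ifngr2 had 51.9 and 50.4 FPKM in WT and 47.4 and 48.4 in Ets1-/- B cells.

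None of the signalling genes was called. Jak1 had 139 and 128 FPKM in WT and 103 and 111 in Ets1-/- B cells, and Tyk2 had 28.2 and 26.3 in WT and 25.1 and 31.8 in Ets1-/- B cells. Jak2, which serves the type II receptor, had 27.0 and 26.2 FPKM in WT and 21.99 and 16.7 in Ets1-/- B cells (log2 change -0.45, limma adjusted p 0.366). Stat2 had 40.6 and 35.8 FPKM in WT and 41.3 and 48.8 in Ets1-/- B cells, and Irf9 had 69.0 and 57.3 in WT and 60.4 and 76.0 in Ets1-/- B cells. Stat2 was higher in both Ets1-/- libraries, with a log2 change of 0.23 (SE 0.16, limma adjusted p 0.668). Jak1, with a log2 change of -0.32 (SE 0.15, limma adjusted p 0.467), and Jak2 were lower in both. Tyk2 and Irf9 overlapped between the genotypes. Irf7, which amplifies interferon production and is itself induced by interferon, had 36.8 and 25.9 FPKM in WT and 19.7 and 33.7 in Ets1-/- B cells, and spread more within each genotype than between them.

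Of the 5 feedback inhibitors tested, Socs3 and Socs1 had the largest differences of the pathway, and Ptpn2, Ptpn6 and Pias1 had log2 changes between -0.15 and 0.08. None of the 5 was called. Socs3 had 13.8 and 25.4 FPKM in WT and 40.5 and 45.9 in Ets1-/- B cells, a log2 change of 1.16 (SE 0.30, limma adjusted p 0.167). Socs1, the inhibitor that acts on Jak kinases at interferon receptors, had 5.28 and 4.10 FPKM in WT and 7.54 and 13.4 in Ets1-/- B cells, a log2 change of 0.97 (SE 0.29, limma adjusted p 0.221). For both genes the Ets1-/- libraries lay above the WT libraries.

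**Figure D5:**
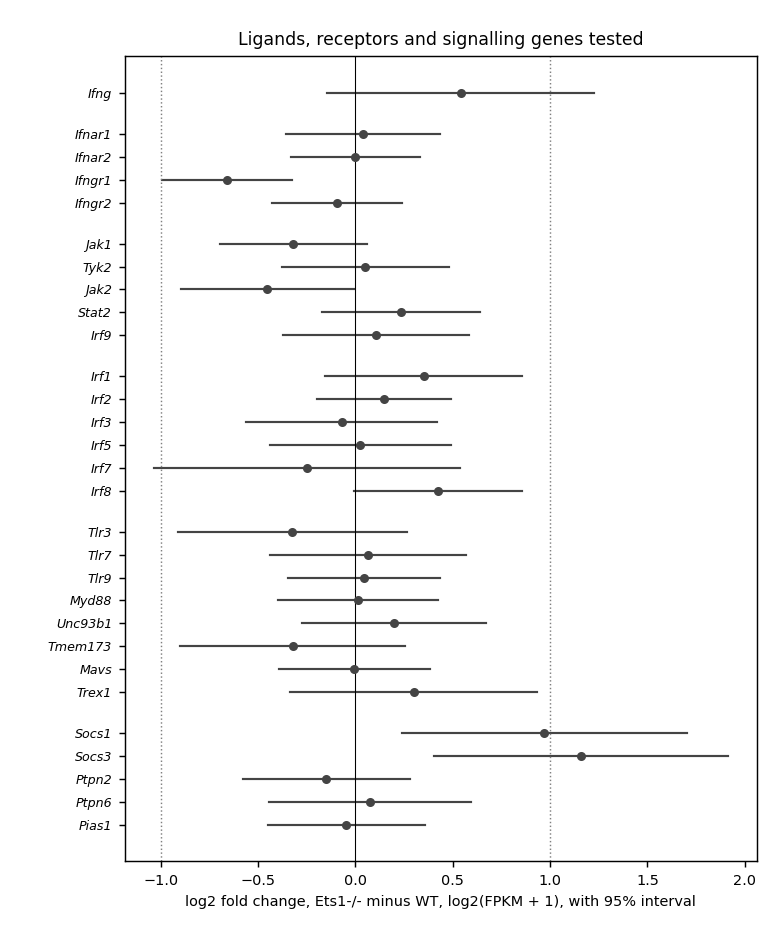
Log2 fold change (Ets1-/- minus WT, on the log2(FPKM + 1) scale) with 95% intervals from limma for the 29 ligand, receptor, kinase, transcription factor, sensor and inhibitor genes tested, in that order from the top. The intervals of Ifnar1 and Ifnar2 are centred near 0, and Socs3 at 1.16 and Socs1 at 0.97 lie farthest to the right.

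A further list of interferon-inducible genes, kept apart from the 41, held 31 genes in the tables, and all 31 were tested. Of them 1 rose (0.877% of all genes tested) and 1 fell (0.822%). Ifi204, a PYHIN sensor of DNA, had 0.337 and 0.115 FPKM in WT and 27.7 and 14.1 in Ets1-/- B cells, a log2 change of 4.09 (SE 0.33, limma adjusted p 0.0111). Ifi204 reached the minimum for testing only through the Ets1-/- libraries. The neutrophil and monocyte or macrophage marker sums were also higher in these libraries, and their part in the value of Ifi204 was not tested. Slfn5, a Schlafen protein, had 13.8 and 14.8 FPKM in WT and 5.19 and 3.25 in Ets1-/- B cells, a log2 change of -1.57 (SE 0.22, limma adjusted p 0.0453, range over the alternatives 0.000108 to 0.118). Slfn5 was not called without WT replicate 1, WT replicate 2 or Ets1-/- replicate 2, with log2 changes between -1.84 and -1.30 over the fits that left out a library. Gbp2, a guanylate-binding GTPase more responsive to interferon gamma, had 9.18 and 9.07 FPKM in WT and 19.4 and 26.9 in Ets1-/- B cells, with a limma adjusted p of 0.0562 that did not pass. The median log2 change of the 31 genes was 0.06.

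The members also varied between the libraries of a genotype. WT replicate 1 was higher than WT replicate 2 for 30 of the 39 genes tested, or 76.9%, against 50.1% of all genes tested. Ets1-/- replicate 2 was higher than replicate 1 for 25 of the 39 genes, or 64.1%, against 54.2% of all genes tested. WT replicate 1 and Ets1-/- replicate 2 were the libraries of lower depth, and Irf7 was higher in the same libraries. The part of depth in this pattern was not tested. The median absolute log2 difference between replicates of the 39 genes was 0.17 in WT and 0.30 in Ets1-/- B cells, beside 0.18 between the genotypes. The replicate values compare single libraries and the last value compares means of 2 libraries, so they are unlike measures.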

How the data were processed

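RNA-seq of sorted follicular B cells was analysed from 2 WT and 2 Ets1-/- libraries. The authors aligned the reads to mm9 with TopHat2 2.0.13 and estimated expression with Cuffdiff, and deposited 1 FPKM value per gene symbol and library. The gene annotation and any further scaling between libraries are not given in the sources used here, and strand-specific counting is not stated. Fragments of C57BL/6 x 129Sv mice were aligned to a C57BL/6 genome, and how this affected single genes was not tested.

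Of 23309 entries per library, 4 with a repeated symbol were left out. Log2(FPKM + 1) values, pseudocount 1, entered linear models in limma 3.58.1 (R 4.3.3, eBayes with a trend, 2 residual and 3.10 prior degrees of freedom) for the 10949 genes whose genotype mean reached 1 FPKM in WT or Ets1-/- B cells, with Benjamini-Hochberg adjustment. The fit was tested on simulated data. Exact permutation of 2 against 2 libraries cannot give a p under 0.333 and was not used. P-values set the difference between genotypes against the spread between libraries described as biological replicates, which limma moderates with the trend over all genes tested. Positions of genes are from GENCODE M1 on mm9, and promoters from RefSeq on GRCm38.p6, where 13 of the 41 genes had no entry (Dhx58, Zbp1, Oas1b, Oas2, Mx1, Mx2, Usp18, Parp9, Parp14, Ly6e, Rtp4, Ifi27l2a and Tor3a). The remaining steps used Python 3.11.15 with pandas 2.3.3 and scipy 1.17.1.

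The 41 genes, the other lists and the tests were chosen with earlier results of these data known. Values were given in every library for each member with an unadjusted p of 0.05 or less or a 2-fold change, the 5 highest members, and the sensor, OAS, IFIT and ISG15 groups. For pathway genes they were given for the receptors, Jak1, Tyk2, Stat2, Irf9, Irf7 and those with an unadjusted p of 0.05 or less. For the further list they were given for the genes called and the 3 with the smallest p. Further genes were named after their values were seen. Some genes of the lists are not reported here. Alternatives covered the pseudocount, the filter, the call rule, quantile normalization, the variance model, the replicate block and each library left out.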

Additional observations from a re-analysis of the deposited data

How the results depend on the processing

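The rule for a call requires a 2-fold change, and the effect of depth on the calls was not tested. The count of 186 genes called over the whole table became 75 without the filter, 106 with a minimum mean FPKM of 5, 305 with robust variance estimation and 312 at an adjusted p of 0.1. It was 266 with the replicate number of the labels as a block. The replicates shared only a number (correlation of same-numbered deviations across genes -0.21), and with the crossed pairing, chosen after seeing the data, 409 genes were called. Of the members 2 were called with the replicate block and 3 with the crossed pairing, which added Eif2ak2 (adjusted p = 0.00429 from limma). Without the filter 1 member was called (Oasl2), and with a minimum of 5 also 1 (Plscr1, as Oasl2 was no longer tested). With each library left out in turn 130 to 144 genes and 0 to 1 members were called, with 0 when either Ets1-/- library was left out and Oasl2 when either WT library was left out. In these fits 1 genotype has a single library, assumed to vary like the other. The median log2 fold change of the members then ranged from -0.17 to -0.0095. The pathway genes gave 1 call, Socs3, with the crossed pairing. The further interferon-inducible genes gave 0 calls without the filter, 1 (Ifi204) with a minimum of 5, and 1 to 3 with a library left out, where Slfn5 was lost in 3 of the 4 fits. Of the 39 members tested, 17 changed sign in some alternative, and none of these was called. With a library left out, log2 fold changes ranged from -0.24 to 0.011 for Adar, -0.18 to 0.15 for Bst2, -0.094 to 0.40 for Cmpk2, -0.18 to 0.019 for Ddx58, -0.19 to 0.30 for Dhx58, -0.22 to 0.012 for Dtx3l, -0.46 to 0.35 for Herc6, -0.12 to 0.21 for Ifi27l2a, -0.16 to 0.22 for Ifit1, -0.15 to 0.50 for Ifitm3, -0.11 to 0.15 for Mx1, -0.38 to 0.14 for Parp14, -0.026 to 0.12 for Parp9, -0.18 to 0.34 for Samd9l, -0.36 to 0.0033 for Tor3a, -0.018 to 0.30 for Trafd1 and -0.40 to 0.081 for Usp18. Quantile normalization gave 0.0089 for Herc6 and -0.11 for Ifi27l2a. The cause of these differences was not tested.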

Other observations

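The gene next to Eif2ak2 on chromosome 17, Gm6548, was named after its values were seen. It had 10.7 and 9.75 FPKM in WT and 107 and 110.5 in Ets1-/- B cells, a log2 change of 3.29 (limma adjusted p 0.00198), while Eif2ak2 was lower in both Ets1-/- libraries. Gm6548 was the 1 gene called among the 6 others tested within 150 kb of Eif2ak2, beside 1.7% of all genes tested. Ifitm7, a further relative of Ifitm3, had 0.284 and 0.526 FPKM in WT and 1.83 and 1.46 in Ets1-/- B cells, with an adjusted p of 0.103 from limma. It reached the minimum for testing only through the Ets1-/- libraries.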
